A study of Mus musculus with 8 samples.

Results

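The proteasome genes were followed here through H3K4me3, the histone mark of active promoters, in mouse lung tumor cells with or without the ferroptosis regulator Gpx4. The members are all listed H3K4me3 peaks whose gene symbol starts with Psm, a letter from a to g and a digit, without Psmb8 and Psmb9. This gave 58 of 35486 listed peaks and 45 of 20871 gene symbols. Of the 45 symbols, 41 are among the 47 subunits, regulators and assembly factors on a list of proteasome genes, and 4 match by their letters alone. These 4 are Psmc3ip, which encodes a partner of the meiotic recombinases, Psme3ip1, which encodes a protein that binds the activator PSME3, and the pseudogenes Psmb5-ps and Psmb7-ps1.

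The mark was profiled by what the paper calls CUT&Tag in EpCAM+ tumor cells free of CD45 and CD31, sorted from lung tumors. As its methods describe the assay, a nuclease tethered to the antibody releases the DNA beside the mark. There were 2 KL libraries (Lkb1fl/fl, replicates 1 and 2) and 2 KLG4m/m libraries (Lkb1fl/fl Gpx4m/m, replicates 3 and 4). Both groups shared the alleles of the KL model, Lkb1fl/fl among them, received Ad-Cre through the nose at 8 to 10 weeks of age and tamoxifen 5 weeks later for 2 weeks, and rested for 3 weeks, so the tumors were taken 10 weeks after Ad-Cre. In Gpx4m/m mice the Gpx4 gene is flanked by rox sites, and a CAG promoter drives DreERT2 once Cre has removed a STOP cassette, so that Gpx4 is deleted by tamoxifen in the cells that Ad-Cre reached. The figure legend gives 2 mice per group, which fits 4 libraries from 4 mice, while the methods give 3 mice in total. P-values measure the spread between these libraries.

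The proteasome degrades proteins that carry ubiquitin chains. Its 20S core is a barrel of alpha rings, which gate the entry, and beta rings, which hold the protease sites of Psmb5, Psmb6 and Psmb7. The 19S cap recognizes and unfolds substrates with its ATPases (Psmc genes) and non-ATPase subunits (Psmd genes), while other activators (Psme genes) open the core without ubiquitin, and dedicated chaperones build core and cap. Under interferon, Psmb8, Psmb9 and Psmb10 replace the constitutive protease subunits. When proteasomes fail, the transcription factor NFE2L1 raises the subunit genes through the antioxidant response element in their promoters.

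Promoters were searched for 8 motifs on both strands, in the window from 250 bases before to 50 bases after the start site of RefSeq (GRCm38.p6). A window was at hand for 37 of the 45 members. Where RefSeq held more than 1 promoter of a gene, as for 4 members, the first listed was taken. A window therefore need not be the promoter that carries the listed peak. The ETS core CCGGAAG lay in 14 of the 37 (37.8%), against 14.8% of the 11407 promoters of genes with a listed promoter peak and 9.12% of all 27025 promoters. By role, it lay in 3 of 4 windows of 19S ATPase genes and 6 of 9 of non-ATPase subunit genes, but in 0 of 11 windows of the 20S alpha and beta rings. Of the other roles, it lay in 2 of 5 windows of activators and inhibitor, 2 of 3 of 20S assembly chaperones and 0 of 3 of 19S assembly chaperones. It also lay in 1 of 2 windows of the symbol matches, that of Psmc3ip. The antioxidant response element core TGACNNNGC lay in 6 windows (16.2%, against 14.6% of promoters with a listed peak), those of Psmb5, Psmb6, Psmc6, Psmd9, Psmd12 and Psme4. CCAAT lay in 12 (32.4% against 37.3%) and the SP box GGGCGG in 20 (54.1% against 60.1%). The NRF1 core GCGCANGCG was found in 5, the E-box CACGTG in 4, TATAAA in 3 and the CRE TGACGTCA in 0. These are matches of letters and not bound sites. The following 5 promoters are shown because they carry CCGGAAG, TGACNNNGC or CCAAT and belong to members whose values are given next. Capitals mark matches to any of the 8 motifs, on either strand. Each sequence ends 10 bases after the start site. It begins 140 bases before the start site, except for Psmd13, whose sequence begins 85 bases before it, where the divergent gene Sirt3 starts.
Psmd13 (19S lid, CCGGAAG over the start site; chr7:140882309-140882403, + strand): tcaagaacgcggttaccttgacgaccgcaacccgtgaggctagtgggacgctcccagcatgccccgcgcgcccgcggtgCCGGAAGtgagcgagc
Psmd2 (19S base, CCGGAAG read on the other strand, and GGGCGG; chr16:20651512-20651661, + strand): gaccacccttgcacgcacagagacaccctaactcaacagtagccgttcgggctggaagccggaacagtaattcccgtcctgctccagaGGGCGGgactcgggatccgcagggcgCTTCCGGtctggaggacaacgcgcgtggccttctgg
Psmb5 (20S protease subunit, TGACNNNGC; chr14:54617986-54618135, - strand): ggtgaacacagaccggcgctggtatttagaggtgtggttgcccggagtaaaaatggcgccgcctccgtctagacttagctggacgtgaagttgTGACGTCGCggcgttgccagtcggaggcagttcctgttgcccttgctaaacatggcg
Psmb6 (20S protease subunit, TGACNNNGC; chr11:70525217-70525366, + strand): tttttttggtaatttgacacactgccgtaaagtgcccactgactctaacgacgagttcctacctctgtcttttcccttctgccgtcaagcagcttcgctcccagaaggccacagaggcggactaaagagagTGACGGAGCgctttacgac
Psmb3 (20S beta ring, CCAAT at 2 places; chr11:97703294-97703443, + strand): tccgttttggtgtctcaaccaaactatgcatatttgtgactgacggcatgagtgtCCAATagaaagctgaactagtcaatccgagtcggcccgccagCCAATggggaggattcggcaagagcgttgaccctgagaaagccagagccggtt
Among members, the median H3K4me3 level was 73.1 CPM with CCGGAAG and 76.8 CPM without it, and the median log2 fold change between the groups was 0.06 and 0.08. For TGACNNNGC the levels were 58.3 and 74.99 CPM and the log2 fold changes -0.04 and 0.09.

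The 4 libraries held 3462206 and 3463731 reads in listed peaks in KL and 3454155 and 3244495 in KLG4m/m. Values in CPM are reads per 1000000 of these after TMM scaling, with factors between 0.995 and 1.004, except that the marker and Gpx4 values of this paragraph carry no TMM factor. The marker promoters of the sorted cells were present: the 6 of 6 epithelial markers summed to 209 and 203 CPM in KL and 164 and 180 CPM in KLG4m/m. Among them Epcam had 41.0 and 43.0 against 22.3 and 23.4 CPM, while Krt18 had 28.9 and 27.7 against 31.0 and 31.4 CPM and the groups overlapped at Krt19. Of 13 immune markers, 11 had a promoter peak (Cd79a and Cd8a had none), and they summed to 163 and 156 CPM in KL and 210 and 203 CPM in KLG4m/m. At Cd3g the groups overlapped (27.7 and 26.0 against 27.2 and 26.5 CPM). The 5 of 5 endothelial markers summed to 71.3 and 82.0 CPM in KL and 58.5 and 70.6 CPM in KLG4m/m. The 3 of 5 fibroblast markers with a promoter peak overlapped, at 64.7 and 71.9 against 69.2 and 72.7 CPM. The epithelial, immune and endothelial sums thus moved with the group beside every comparison that follows, and their part in it was not tested. The Gpx4 promoter peak had 69.9 and 68.1 CPM in KL and 88.0 and 92.8 CPM in KLG4m/m. It lies outside the deleted exons, so it does not check the deletion.

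Of the 47 listed subunits, regulators and assembly factors, 40 had a promoter peak, 1 had a listed peak farther away and 6 had none. With Psmc3ip and Psme3ip1, 42 of the 45 members had a peak within 1 kb of the start site, against 15391 of all 20871 gene symbols, and 34 of these 42 peaks lay over it. Since members were chosen by having a listed peak, the count of 42 does not bear on proteasome genes without one. Their median level was 74.5 CPM against 44.7 CPM for the promoter peaks of all 15391 genes that have one. The levels of 39 of 42 were above that median, 23 (54.8%) were above the upper quartile of 71.0 CPM and 0 were below the lower quartile of 17.2 CPM. Single libraries held 125 to 545 reads in a member promoter peak. Most of the proteasome promoters with a peak therefore lay in the upper part of the distribution.

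**Figure D1:**
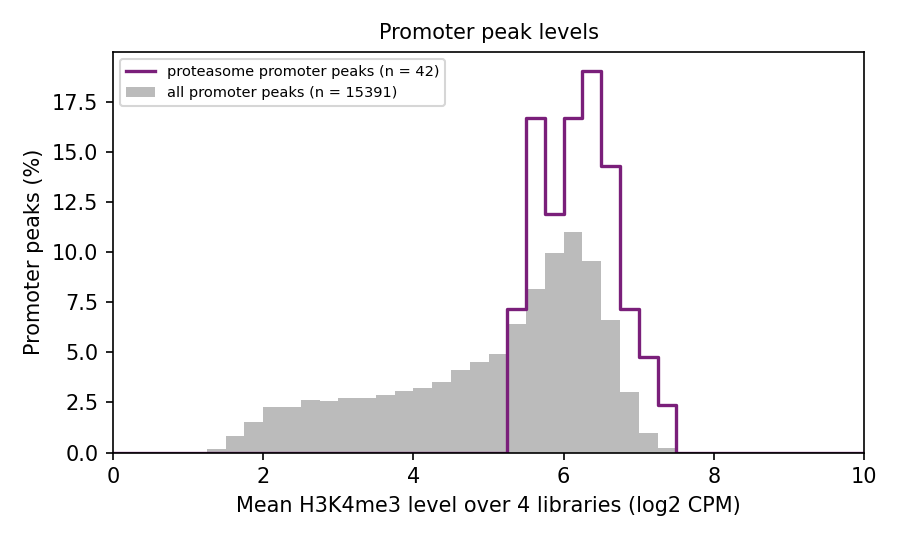
Share of promoter peaks (percent, y axis) by mean H3K4me3 level over the 4 libraries (log2 CPM, x axis), as grey bars for 15391 genes and as a purple line for the 42 proteasome promoter peaks. The proteasome peaks lie between 41.5 and 157 CPM, and none lies in the long lower tail of all promoters.

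The highest promoter level belonged to Psme3ip1 (151 and 153 CPM in KL, 156 and 169 CPM in KLG4m/m), which is no subunit. It was followed by Psmb3, a structural subunit of the beta ring (138 and 124 against 125 and 142 CPM), and Psme2, the interferon-induced partner of Psme1 in the PA28 activator (116 and 128 against 134 and 139 CPM). The lowest were Psmd8, a subunit of the 19S lid (36.0 and 41.5 against 45.8 and 42.7 CPM), Psmb4, a subunit of the beta ring (39.7 and 42.9 against 47.6 and 43.7 CPM), and Psmd9, a chaperone of the 19S base (47.2 and 40.9 against 41.8 and 45.5 CPM). Genes whose products stand together in the same ring thus had unequal marks: the alpha ring genes spanned 63.1 (Psma7) to 108 CPM (Psma4) and the beta ring genes 43.5 (Psmb4) to 132 CPM (Psmb3). The ATPase genes ran from 53.0 (Psmc2) to 94.1 CPM (Psmc6) and the non-ATPase genes from 41.5 (Psmd8) to 112 CPM (Psmd1). The gaps between the ends of each ring exceeded the spread between libraries, since the lowest library of Psmb3 had 124 CPM and the highest of Psmb4 47.6 CPM. The 3 lowest members did not separate from each other, as their libraries overlapped. The levels are per peak of 400 bp, a length that all member peaks share.

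**Figure D2:**
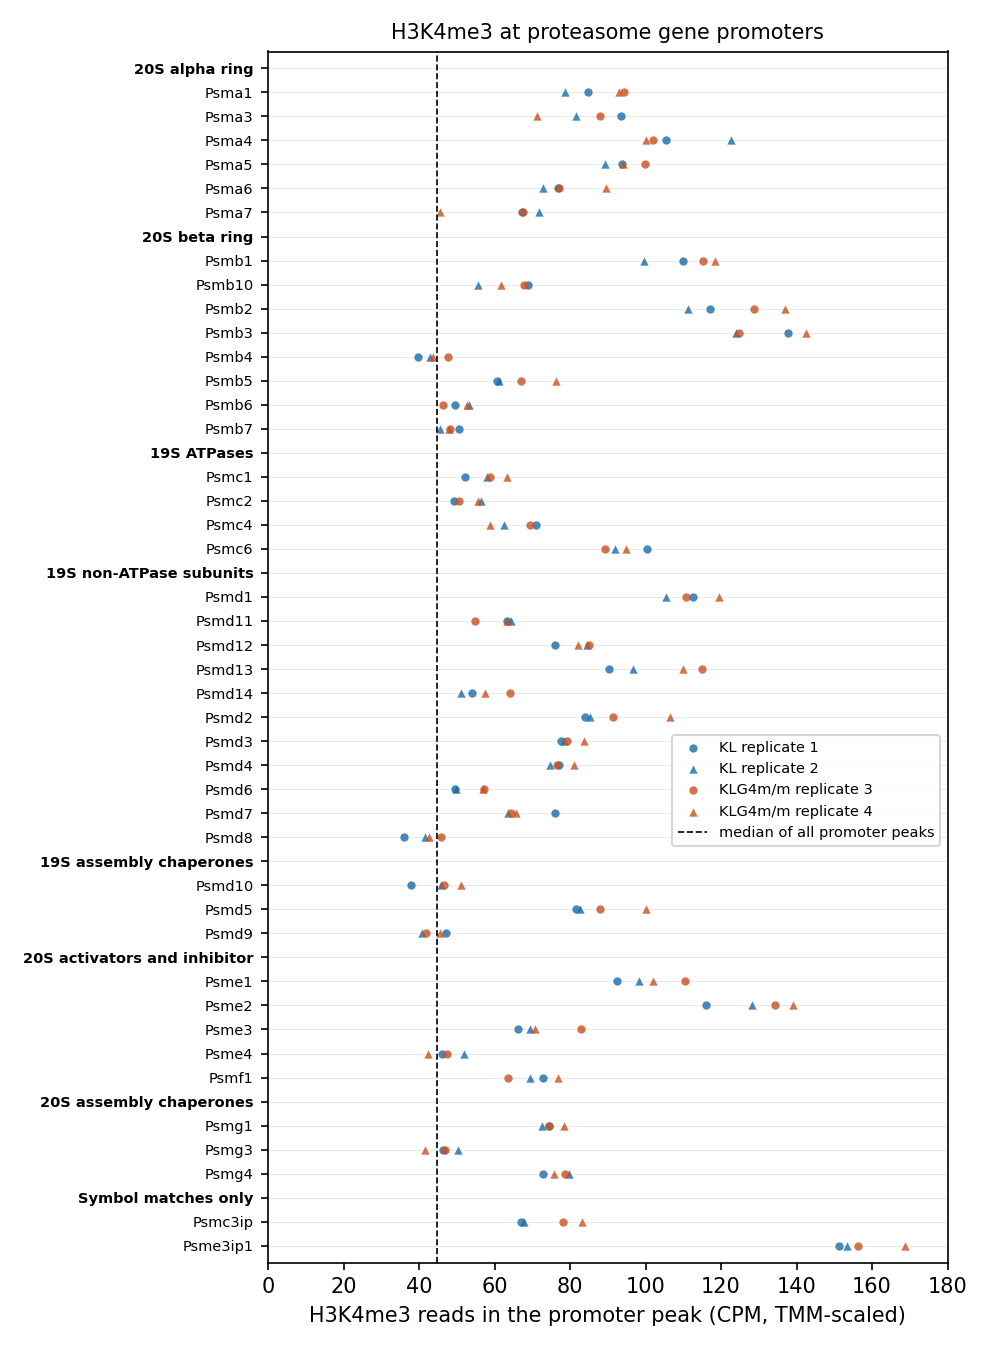
H3K4me3 level (TMM-scaled CPM, x axis) of the 42 proteasome promoter peaks in each library, by role, for KL (blue) and KLG4m/m (orange), with the median of all promoter peaks as a dashed line at 44.7 CPM. Genes differ from each other by more than the groups do: levels run from 41.5 CPM for Psmd8 to 157 CPM for Psme3ip1.

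Between KLG4m/m and KL tumor cells, 0 of the 42 proteasome promoter peaks passed the test (edgeR's quasi-likelihood test, Benjamini-Hochberg adjusted p under 0.05 over all 35486 peaks), while 2.77% of all promoter peaks were called higher and 8.69% lower. Over all listed peaks the shares were 3.1% and 5.52%. The lowest adjusted p of a member promoter was 0.0521 (Psmd13). DESeq2 and limma also called 0 of the 42, but 8 were called higher when the libraries were scaled to equal medians over peaks within 1 kb, which raised the median of all promoters to 0.107. Without KLG4m/m replicate 3 or without replicate 4 no listed peak at all was called (0 of 35486), so every call named hereafter is lost without either of them. At an unadjusted p under 0.05, 6 were higher and 1 lower, against 11% and 17.3% of all promoter peaks. Under TMM scaling, the 95% intervals of the 42 all lay between a 1.47-fold decrease and a 1.40-fold increase, with a median standard error of 0.10 on the log2 scale. These bounds leave out the choice of scaling, since equal medians moved the members' median log2 fold change from 0.0693 to 0.173. Without KLG4m/m replicate 3, the Psma7 promoter had a log2 fold change of -0.61, beyond the lower bound of -0.552.

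Most of the differences were small and above 0. The log2 fold change (KLG4m/m over KL) was above 0 at 29 of 42 promoters (69.0%), against 50.6% of all promoter peaks, and its median was 0.07 against 0.00388. Of the 8113 promoters of the same level as the members, 59.4% were above 0, with a median of 0.04, and the difference was not tested. At 22 of the 42 promoters both KLG4m/m libraries were above both KL libraries, at 2 both were below and at 18 the groups overlapped. Of all promoter peaks, 28% had both KLG4m/m libraries above and 29.2% both below, and of those of the members' level 33.7% and 22.2%. The 42 peaks come from the same 4 libraries and share their scaling, so they do not count as 42 separate observations of the genotype. Summed over the 42 peaks, the promoters took 0.321% and 0.319% of the reads in KL and 0.333% and 0.337% in KLG4m/m, a ratio of 1.05, at an exact two-sided permutation p of 0.333, which is the smallest p that 2 against 2 libraries allow.

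**Figure D3:**
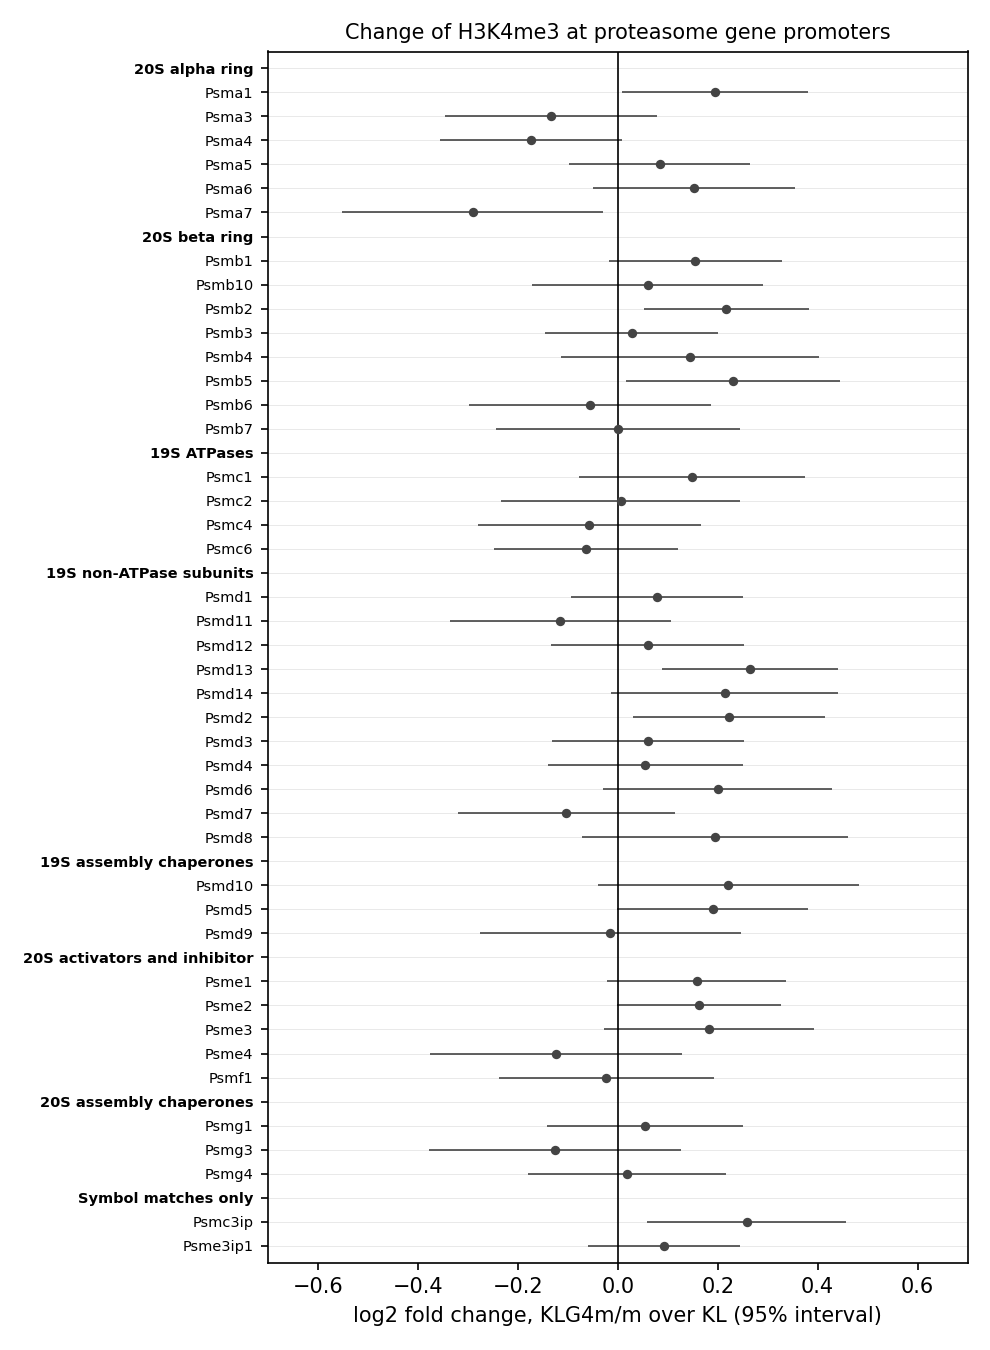
Log2 fold change of H3K4me3 (KLG4m/m over KL, x axis) with its 95% interval at the 42 proteasome promoter peaks, by role. Values run from -0.29 (Psma7) to 0.27 (Psmd13), and 29 of 42 lie to the right of 0, though none passed the test.

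By role, 9 of the 11 promoters of the 19S non-ATPase subunits had a value above 0, with a median log2 fold change of 0.08. Psmd13, a scaffold of the 19S lid, had the highest value of all members. Its promoter had 90.3 and 96.8 CPM in KL and 115 and 110 CPM in KLG4m/m, so the groups did not overlap, with a log2 fold change of 0.27 ± 0.09 (SE, n = 2 per group). Taken gene by gene, with the adjustment over 20871 genes in place of 35486 peaks, the same single peak passed (log2 fold change 0.26, adjusted p = 0.0252), but not without KL replicate 1 (0.22, adjusted p = 0.209) or KL replicate 2 (0.32, adjusted p = 0.0568). Within 0.5 Mb of Psmd13, 5 of 47 other peaks were called higher and 0 lower, against 3.1% and 5.52% of all listed peaks. Of these 47 peaks, 15 were below 0, and their median log2 fold change was 0.10. A change shared over this region was not tested. The other non-ATPase genes ran from -0.11 (Psmd11) to 0.22 (Psmd2, a scaffold of the 19S base). The 4 ATPase promoters lay between -0.06 (Psmc6) and 0.15 (Psmc1), with a median of -0.03.

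In the 20S core, none of the catalytic subunits passed the test, and their intervals overlapped. Psmb5, which carries the chymotrypsin-like site, had 60.7 and 61.1 CPM in KL and 67.0 and 76.2 CPM in KLG4m/m, a log2 fold change of 0.23 ± 0.10 (SE, adjusted p = 0.167). Psmb6, with the caspase-like site, had 49.5 and 53.3 against 46.4 and 52.6 CPM (-0.06 ± 0.12, adjusted p = 0.814). Psmb7, with the trypsin-like site, had 50.6 and 45.5 against 48.1 and 48.0 CPM, and the 95% interval of its log2 fold change ran from -0.24 to 0.24. Only for Psmb5 did the groups not overlap, and the differences among these genes were not tested. Values were above 0 at 6 of 8 promoters of the beta ring and 3 of 6 of the alpha ring.

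Psma7, an alpha ring subunit, had the lowest value of all promoters. It had 67.3 and 71.7 CPM in KL and 67.6 and 45.5 CPM in KLG4m/m, and the decrease was in replicate 4 alone (log2 fold change -0.29 ± 0.13 SE, adjusted p = 0.155). A second Psma7 peak, 8136 bp past the start site, had 16.1 and 12.1 against 9.57 and 8.98 CPM. With the reads of both peaks summed, Psma7 fell by 0.34 on the log2 scale (290 and 291 reads against 266 and 176, adjusted p = 0.0144), a size that rests on replicate 4: without it the log2 fold change was -0.11 with an adjusted p of 0.557. The call was also lost, at nearly the same size, without KL replicate 1 (-0.34, adjusted p = 0.0725) or KL replicate 2 (-0.33, adjusted p = 0.0953). The other low promoters were Psma4 (105 and 123 against 102 and 100.01 CPM, log2 fold change -0.17) and Psma3 (93.5 and 81.5 against 87.9 and 71.2 CPM, -0.13), neither of which passed the test.

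The interferon-induced members were Psmb10, Psme1 and Psme2. Psmb10 had 68.8 and 55.6 CPM in KL and 67.9 and 61.6 CPM in KLG4m/m, and its groups overlapped (log2 fold change 0.06 ± 0.11 SE). Psme1 had 92.3 and 98.2 against 110 and 102 CPM (0.16 ± 0.09) and Psme2 116 and 128 against 134 and 139 CPM (0.16 ± 0.08), so that both stood higher in KLG4m/m without overlap, at adjusted p of 0.269 and 0.210. In all, 22 of the 42 member promoters stood higher without overlap, against 33.7% of promoters of the members' level, so this is not particular to Psme1 and Psme2. The summed immune markers named before were higher in the same libraries, though not Cd3g, and a link to these members was not tested. The other activators were Psme3 (0.18), Psme4 (-0.12) and the inhibitor Psmf1 (-0.02), and the promoters of the chaperones ran from -0.13 (Psmg3) to 0.22 (Psmd10). Of the symbol matches, Psmc3ip had 67.0 and 67.7 against 78.0 and 83.3 CPM (0.26 ± 0.10, adjusted p = 0.0951) and Psme3ip1 0.09 ± 0.07.

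Summed per gene over all its peaks, 1 of the 45 members was called higher (Psmd13) and 2 lower (Psma7 and Psmg2), against 5.38% and 9.63% of all genes. At an unadjusted p under 0.05 there were 8 higher and 3 lower, against 12.4% and 16.4% of all genes.

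Psmg2, a chaperone that pairs with Psmg1 to start the alpha ring, was the one member with a peak past the test. No peak within 1 kb of its start site is listed under its name. Its single listed peak (chr18:67799718-67800118 in the positions of the table) is weak, lies 25061 bp past the start site and is annotated as 3' UTR, although it begins after the gene end that the table gives. It held 22 and 16 reads in KL and 4 and 6 in KLG4m/m, without overlap, a decrease of 1.84 on the log2 scale (SE 0.48, adjusted p = 0.0155, with an interval of -2.82 to -0.86). With so few reads the size is loosely known. The start site of Psmg2 itself is covered by a strong peak that the table assigns to the neighbour Cep76, a centrosomal gene. That peak had 71.9 and 73.5 CPM in KL and 56.3 and 43.3 CPM in KLG4m/m, and fell by 0.54 on the log2 scale (adjusted p = 0.00396). By these positions the start site of Psmg2 had lower H3K4me3 in both KLG4m/m libraries, though the peak bears another symbol. The call at the weak peak was lost without KL replicate 1 (log2 fold change -1.60, adjusted p = 0.135) and that over the start site was kept without either KL library.

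The lower signal at Psmg2 was shared by some of its neighbours, which were looked at after the values were seen. The promoters of Spire1, an actin nucleator gene (33.4 and 41.2 against 19.7 and 20.7 CPM, log2 fold change -0.88, adjusted p = 8.7e-04), and of Ptpn2, a phosphatase gene (74.2 and 62.5 against 46.4 and 38.4 CPM, -0.69, adjusted p = 7.4e-04), also fell, 55.8 kb before and 57.5 kb after the Psmg2 peak. So did Gm26910, 108.5 kb after it (-0.50, adjusted p = 0.0236), a call that was also lost without KL replicate 2 (-0.40, adjusted p = 0.181). Further out, Cep192 at 133.5 kb had a log2 fold change of 0.08, and Prelid3a, 202.0 kb before, one of -0.43 that did not pass (adjusted p = 0.0949). Within 0.5 Mb on either side of Psmg2, 23 of 33 other peaks were below 0 (69.7%), with a median of -0.24 against 0.00771 over all listed peaks. Of these 33, 4 were called lower and 0 higher (1 higher at an unadjusted p under 0.05, Gm30321). Over all listed peaks, 5.52% were called lower and 3.1% higher. Around Psmg4, 10 of 14 other peaks were below 0 (71.4%), with 0 called and a median of -0.15. Around the members with a promoter peak and Psmg2, such medians ran from -0.28 (Psmc6) to 0.26 (Psmd12).

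**Figure D4:**
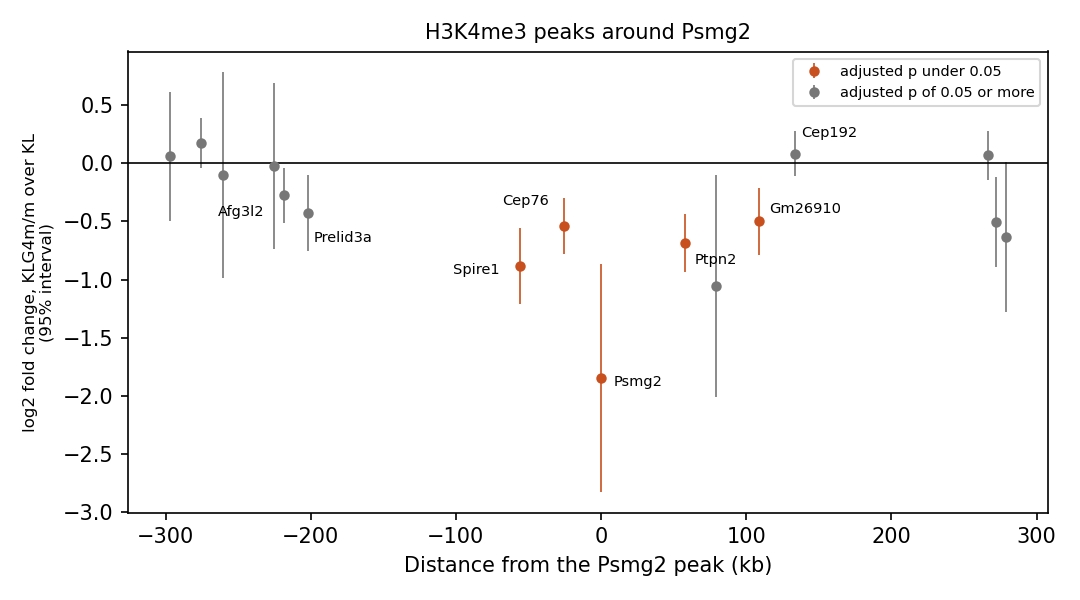
Log2 fold change of H3K4me3 (KLG4m/m over KL, y axis) with its 95% interval for the peaks within 300 kb of the Psmg2 peak, by distance from it in kb (x axis), in orange where the adjusted p is under 0.05. The 5 called peaks, Psmg2 included, lie from 55.8 kb before to 108.5 kb after it with 1 peak among them that did not pass, and Cep192 just beyond has a value of 0.08.

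For some other genes without a peak of their own, a divergent neighbour carried one. Psma2, Psma8, Psmb11, Psmc3, Psmc5 and Psme2b had no listed peak. By RefSeq positions, the start site of Psma2 lies 205 bases from that of the divergent gene Mrpl32, whose promoter peak had 104 and 105 CPM in KL and 113 and 120 CPM in KLG4m/m (log2 fold change 0.16, adjusted p = 0.232). Psmc5 lies 101 bases from Ftsj3, with 122 and 113 against 123 and 120 CPM (0.05, adjusted p = 0.761). In the other direction, RefSeq start sites were at hand for 37 of the 42 members with a promoter peak. Psmb1, Psmb2, Psmb7, Psmd3 and Psmd7 could not be searched. Of the 37, 5 have a divergent gene within 1 kb without a listed promoter peak. They are Psma7 with Ss18l1, Psmd13 with Sirt3, Psmd10 with Atg4a, Psme2 with Rnf31 and Psme3ip1 with Rspry1. The peaks of Psmd10 and Psme2 begin at -147 and -285 from the start site, short of the partners' starts 196 and 641 bases away. Those of Psma7, Psmd13 and Psme3ip1 begin at -192, -246 and -349, beyond the partners' starts 19, 85 and 215 bases away. The peak positions count from the start site of the deposited annotation and the partner distances from that of RefSeq. Whether these are the same site was not checked. If they are, these 3 peaks lie over both start sites, and their reads cannot be assigned to one of the 2 genes. For Psmd13 and Psma7, the members with the highest and the lowest promoter value, the mark would then also be that of the partner. The partners are Sirt3, a mitochondrial deacetylase gene, and Ss18l1, a chromatin remodelling gene.

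Away from promoters, the members had 16 peaks with a median level of 4.23 CPM (3.23 to 25.1), against 7.21 CPM for all peaks beyond 1 kb. They held 4 to 87 reads in a library. The strongest was listed under the pseudogene Psmb7-ps1 but lies in an intron of Msn, a cytoskeletal linker gene, and had 25.03 and 25.1 CPM in KL and 24.9 and 25.4 CPM in KLG4m/m. Psma6 had 4 such peaks, 3 of them in an intron of Prorp, and Psma1 had 3. Besides Psmg2, the one with an unadjusted p under 0.05 was the Psma7 peak (log2 fold change -0.60, adjusted p = 0.111). Both of these 2 were lower, against 10.2% of all peaks beyond 1 kb, and the median over the 16 was -0.03.

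Other genes of the pathway were taken from a list of 30 (proteasome-associated factors, shuttles, ubiquitin genes and the NFE2L1 axis), of which 23 had a listed peak. By reads summed per gene, 0 rose and 1 fell, against the 5.38% and 9.63% of all genes. Of the 23, 8 were above 0 and the median log2 fold change was -0.07, against 50.3% and 0.00235 over all genes. The gene that fell was Ube3c, a ubiquitin ligase that works at the proteasome. It had 196 and 207 reads in KL and 129 and 126 in KLG4m/m, a decrease of 0.60 on the log2 scale (SE 0.13, adjusted p = 1.57e-04) with no overlap of the groups. At an unadjusted p under 0.05 stood also Sem1, a small 19S subunit outside the Psm names (271 and 275 against 238 and 204 reads, log2 fold change -0.25, adjusted p = 0.079), and Usp14, a deubiquitinase of the cap (0.18, adjusted p = 0.125). Nfe2l1, the regulator of the subunit genes, had a log2 fold change of 0.09 with overlapping groups, and Pomp, the chaperone of the core, one of 0.15.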

How the data were processed

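H3K4me3 was profiled by what the paper calls CUT&Tag, with the pAG-MNase named in its methods, in 2 KL and 2 KLG4m/m libraries. Per the methods, the authors trimmed reads (Trim Galore 0.6.10), mapped them (BWA 0.7.15), removed duplicates (Picard 2.17.3), called peaks (MACS2 2.2.7.1) and annotated them (HOMER 4.11.1). How peaks of the libraries were merged is not given in the sources used here. The authors deposited 1 table with counts, whole reads per peak and library, which were used here, and CPM, scaled to 1000000 reads in listed peaks. The table also holds the authors' own comparison, a log2 fold change and log2 CPM, an F score and raw and adjusted p-values, none of which was used. Its contig names are those of GRCm39, whereas the methods name Ensembl 94. Positions are given as deposited, and RefSeq promoters (GRCm38.p6) were matched by symbol.

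Counts were tested with edgeR 4.0.16 in R 4.3.3 (TMM, quasi-likelihood, two-sided, no covariate, threshold of 0.05) over 35486 peaks or 20871 genes. The promoter peak is that nearest the start site within 1 kb. On simulated data for this comparison (35486 peaks), 86% of 200 peaks changed 2-fold were recovered. Alternatives were DESeq2 1.42.0, limma 3.58.1, other scalings, pseudocounts of 1 and 4, a minimum of 10 CPM and leaving out each library. The libraries held 3244495 to 3463731 reads in peaks, so intervals rest on 125 to 545 reads per promoter peak and 4 to 87 reads elsewhere. Replicates of a group differed by more than counting noise (chi-square per degree of freedom 1.13 and 1.23), so none was merged.

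Members, gene lists and motifs were chosen with earlier results of these data known. Values per library are given for members past the threshold, the 3 highest and lowest levels, the 3 largest rises and falls, the catalytic and interferon-induced subunits and pathway genes past the threshold. H3K27ac was not analysed here. Part of the genotype that both groups share is not reported here.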

Additional observations from a re-analysis of the deposited data

How the results depend on the processing

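No paired analysis was possible because the KL and KLG4m/m libraries share no replicate number. Scaling decides the count of called members: with each library set to equal medians over peaks within 1 kb, which shifts the median of all promoters to 0.107 and that of the members to 0.173, 8 member peaks and 13 member genes were higher, 1 member gene was lower and 4 pathway genes were higher, and 3417 of all peaks and 1920 within 1 kb were higher, so that 68.0% of calls were higher against 35.9%. Relative to all promoters the members' median stayed between 0.0456 and 0.0946 higher under the settings run. Part of this goes with level, since under TMM scaling promoters of the members' level had a median of 0.0415 against 0.0693 for the members. The comparison at like level was not run under the other settings. DESeq2 called 33 peaks higher and 244 lower (19 and 229 within 1 kb), 0 member peaks and 0 member genes either way, with an adjusted p of NA for Psmg2. Quantile normalization gave 486 and 866 (218 and 734 within 1 kb), with 0 member peaks either way, and 0 member genes higher and 1 lower. A minimum of 10 CPM removed the Psmg2 peak, leaving 0 member peaks and 1 member gene lower (Psma7), and with the peak nearest the start site 1 member gene was lower (Psmg2). At an unadjusted p, 6 member peaks were higher and 3 lower. Leaving out 1 library gave 0 to 702 peaks higher and 0 to 1459 lower (0 to 295 and 0 to 1156 within 1 kb), 0 member genes higher, 0 to 1 member genes or peaks lower, 0 to 1 pathway genes lower and a members' median of 0.0510 to 0.0930. The zeros over all peaks came without either KLG4m/m library. There the lone library is assumed to vary like the KL pair, as a lone KL library is assumed to vary like the KLG4m/m pair. Why the fits differed was not tested. Psmg2's peak passed in 5 of 9 alternatives (failing with quantile normalization and without KL replicate 1 or either KLG4m/m library), summed Psmd13 in 6 of 12, summed Psma7 in 4 of 12 and Ube3c in 10 of 12, with unchanged sign. The neighbours Spire1, Cep76, Ptpn2 and Gm26910, added after seeing the data, passed in 8, 8, 9 and 6 of 11. Some values near 0 changed sign, none of them called: Psmb3 (-0.0695 with quantile normalization, -0.0668 to 0.119 without a library), Psme3ip1 (-0.00986 with quantile normalization), Psmd9 (0.0881 with equal medians, 0.0437 with quantile normalization, -0.114 to 0.0918 without a library), Psmb7 (0.103, 0.0471 and -0.0749 to 0.0788), Psmb6 (0.0477 with equal medians, -0.145 to 0.0311), Psma3 (-0.301 to 0.00833) and Psmb10 (-0.0851 to 0.221). The cause was not tested. Depth limits the peaks away from promoters, where counting error is a large part of a value.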
